A study of Mus musculus with 2 samples.

Results

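Bone mineral matrix genes are described here as a group of 10 genes, chosen by name out of the 32285 genes of the count tables. All 10 symbols were found. They are Bglap, Bglap2 and Bglap3 (the 3 mouse osteocalcin genes), Ibsp (bone sialoprotein), Spp1 (osteopontin), Dmp1 (dentin matrix protein 1), Mepe (matrix extracellular phosphoglycoprotein), Phex (a phosphate-regulating endopeptidase), Ifitm5 (a small osteoblast membrane protein) and Alpl (tissue-nonspecific alkaline phosphatase). The cells came from male Clec3b.creERT2; Ai14.R26.tdTomato littermates, in which tamoxifen switches on permanent tdTomato in cells that express Clec3b. Surgery was done at 6 weeks of age, 2 weeks after tamoxifen, and tissue was taken 3 weeks after surgery. The intact library (no fracture) held tdTomato-sorted cells of femoral shafts with surrounding muscle, and the callus library held tdTomato-sorted cells of femoral fracture calluses. Each library pooled tissue of 3 mice, so there was 1 library per condition and no replicate. The paper describes both tissues as taken from 3 littermate males after surgery, so the libraries may share the same operated mice. Every interval is a 95% interval for counting error only, and no difference between the libraries was tested.

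Bone mineral forms in a collagen matrix that osteoblasts secrete. Osteoblasts early in their maturation make alkaline phosphatase, which frees phosphate from pyrophosphate, an inhibitor of mineral. They then make the acidic phosphoproteins bone sialoprotein and osteopontin, which bind mineral and cells, and late in maturation they make osteocalcin, which is carboxylated by a vitamin K-dependent enzyme. Osteoblasts that become buried in matrix turn into osteocytes, for which Dmp1, Phex and Mepe are known markers. Osteopontin is also made by osteoclasts and macrophages.

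The genes sit in several places in the genome (build GRCm38, GENCODE annotation). The 3 osteocalcin genes lie side by side on the minus strand of chromosome 3, from base 88368616 to base 88384464, in the order Bglap3, Bglap2, Bglap. The gaps between them are 4992 and 4801 bases. Dmp1, Ibsp, Mepe and Spp1 lie in this order on the plus strand of chromosome 5, within 238438 bases, and belong to the SIBLING family of phosphoproteins. Alpl is on chromosome 4, Ifitm5 on chromosome 7 and Phex on chromosome X. Gene models that overlap a member on its own strand were annotated for Spp1, Phex and Ifitm5 only, so counts of these 3 could be affected by that overlap.

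The osteocalcin genes are near copies, which limits how well their counts can be told apart. The last coding exon of Bglap (chr3:88383638-88383767, GRCm38, minus strand) is shown with the matching 130 bases of Bglap2 (chr3:88377873-88378002) and Bglap3 (chr3:88368759-88368888), read from the GENCODE transcripts, with bases that differ from Bglap in capitals.
Bglap: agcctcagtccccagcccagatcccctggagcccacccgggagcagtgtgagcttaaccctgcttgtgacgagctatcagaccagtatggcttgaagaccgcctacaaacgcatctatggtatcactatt
Bglap2: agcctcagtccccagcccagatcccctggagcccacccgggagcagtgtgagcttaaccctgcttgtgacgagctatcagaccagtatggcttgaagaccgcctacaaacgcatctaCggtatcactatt
Bglap3: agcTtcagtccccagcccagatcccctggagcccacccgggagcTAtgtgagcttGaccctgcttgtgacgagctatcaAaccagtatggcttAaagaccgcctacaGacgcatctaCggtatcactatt
Bglap2 differed from Bglap at 1 of these bases and Bglap3 at 8. Over the last 300 bases of the transcripts, 121 of 211 stretches of 90 bases (57.3%) were identical in Bglap and Bglap2, and none was shared with Bglap3. The split of UMIs between Bglap and Bglap2 is therefore uncertain. Their sum may be affected too, since how reads that match both genes were counted was not checked. A UMI is a molecular barcode that marks 1 captured RNA molecule.

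Promoter letters were searched because RUNX2, the master regulator of osteoblasts, binds the core ACCACA, which reads TGTGGT on the other strand. In the 250 bases before a start site, 14.05% of 32851 promoters in the RefSeq table (GRCm38.p6) held it on either strand. Entries were present for 9 of the 10 genes, Bglap2 being the exception. The core was found in 1 start-site window each of Bglap, Spp1 and Dmp1 and in that of Mepe, and in no window of Ibsp, Phex, Ifitm5, Alpl or Bglap3. The 60 bases around it are printed for the first 2 of these genes, the pair on which the results turn, with the core in capitals.
Bglap (chr3:88384566-88384625, minus strand): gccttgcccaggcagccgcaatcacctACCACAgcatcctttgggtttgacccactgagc
Spp1 (chr5:104434956-104435015, plus strand): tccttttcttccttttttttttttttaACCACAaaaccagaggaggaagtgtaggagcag
The core began 132 bases before the start site in Bglap and 128 bases before it in Spp1. A match of letters is not a binding site.

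Of 1872 intact and 3987 callus barcodes, 1207 and 3295 were kept, those in which 500 genes or more were detected and mitochondrial transcripts did not exceed 10%. Median depth was 4939 and 6843 UMIs per kept cell. A single barcode sequence occurred in both libraries. Cells were clustered without the 10 genes and named from lists of other markers. Most kept cells were haematopoietic although they were sorted on tdTomato (60.5% of intact and 67.8% of callus cells, over named types and without osteoclasts). Clec3b itself, the gene that drives the Cre, had UMIs in 277 of 284 intact and 200 of 210 callus fibroblasts, but in 1 of 29 osteoblast-like and 2 of 46 bone marrow stromal cell (BMSC)-like callus cells. Clec3b was among the naming markers of Pi16-type and Col15a1-type fibroblasts, so this contrast partly describes how the groups were named.

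The 10 genes were concentrated in a small number of callus cells. A cluster of 29 callus cells and 1 intact cell was named osteoblast-like. It was led by Col11a1, Col1a1, Col11a2, Col1a2 and Sparc, and it carried the osteoblast transcription factor Sp7 (122 UMIs) in the callus. These cells were 0.88% of kept callus cells (0.59 to 1.26%) and 1 of 1207 intact cells, yet the 10 genes took 87682 counts per 1000000 UMIs (CPM, 86970 to 88397) in the callus cells of the cluster. A BMSC-like cluster of 46 callus cells (1.40%, 1.02 to 1.86%) and no intact cell followed with 39053 CPM. That pooled level came largely from few cells, described below. The median BMSC-like cell had 3711 CPM, against a median of 67203 CPM in osteoblast-like callus cells. The BMSC-like cluster was led by Mmp13, Cxcl12, Tnc and Adipoq, of which Cxcl12 and Adipoq are known from marrow stroma. Mmp13 was on the osteoblast list used for naming. That list had the next-highest score (mean log2 ratio of its markers 1.63, against 5.93 for BMSC). In pooled callus fibroblasts (Pi16-type, Col15a1-type and tenocyte-like cells) the sum was 620 CPM, and in callus haematopoietic cells it was 39.8 CPM.

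**Figure D1:**
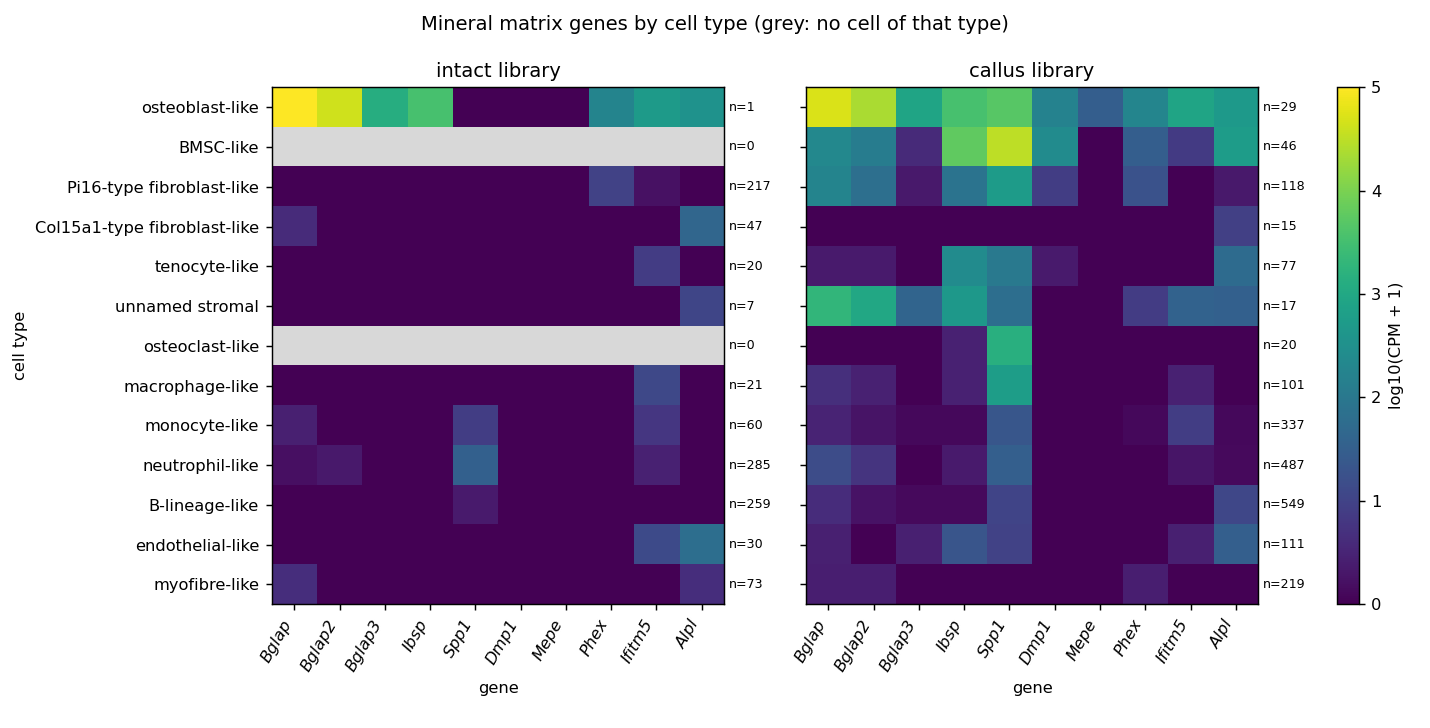
Level of each of the 10 genes in the cell types named on the left for the intact (left) and callus (right) library, as log10 of summed counts per 1000000 UMIs (CPM) plus 1, with the number of cells beside each row and grey where a library had none. The osteoblast-like row is bright for the 3 osteocalcin genes in both libraries, while the brightest square of the BMSC-like row is Spp1.

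The osteocalcin genes were close to confined to the osteoblast-like cluster among the cell types compared. In the callus, Bglap reached 53106 CPM there (52553 to 53664), Bglap2 23633 CPM (23264 to 24006) and Bglap3 831 CPM (763 to 904). The cluster held 97.5% of all callus Bglap UMIs (35197 of 36095), 97.3% of those of Bglap2 and 96.5% of those of Bglap3. Most of the remainder, 591 Bglap UMIs, lay in 2 of 17 cells of an unnamed stromal cluster. The cell with 517 of them also carried 836 UMIs of S100a8, a neutrophil gene, and 4 of Ptprc, a leukocyte gene. Against the other callus stromal cells Bglap was 154-fold higher (144 to 165).

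Bglap was not even within the cluster. It was found in 27 of 29 callus cells, with a lowest value of 0, a median of 675 and a highest value of 4361 UMIs per cell. At least 100 UMIs were present in 20 cells, and per UMI of the cell the range ran from 0 to 123751 CPM. Bglap2 made up between 19.7 and 35.6% of Bglap plus Bglap2 in the 23 cells with at least 50 UMIs of the 2 genes together (median 30.2%). Cells with fewer were left out of this share. Over the same 23 cells Bglap ran from 48 to 4361 UMIs and Bglap2 from 17 to 1938, in cells of unlike depth. Per UMI of the cell, Bglap ran from 2340 to 123751 CPM in them. The share of Bglap2 thus varied far less between these cells than the amount of either gene, although the 2 genes cannot be fully separated.

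**Figure D2:**
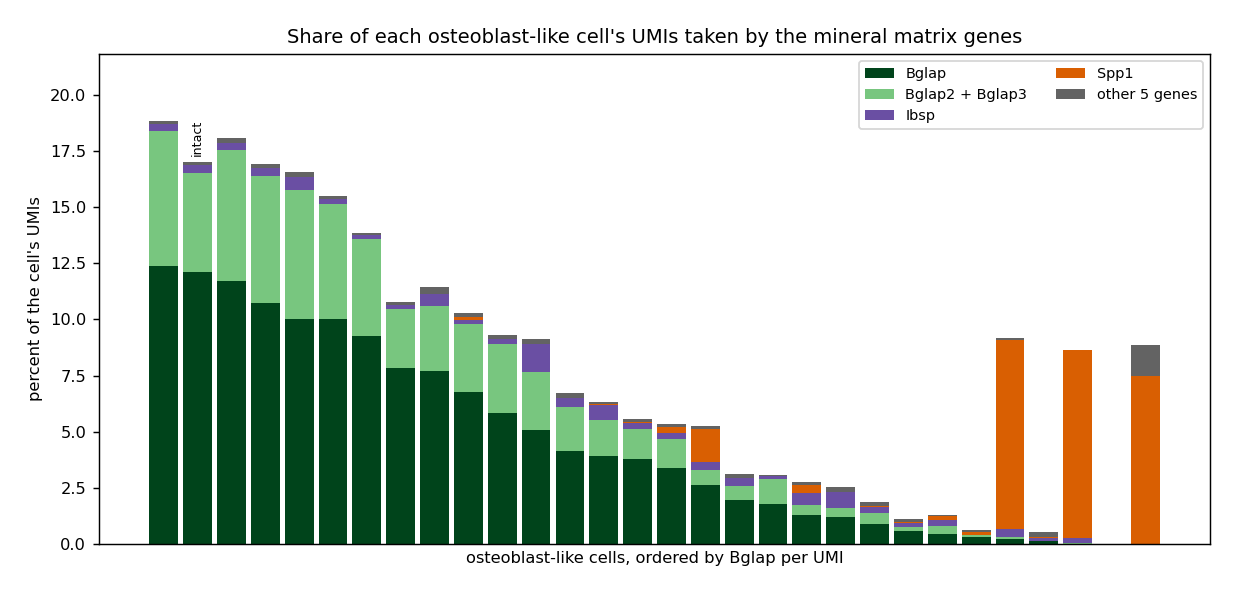
Percent of each cell's UMIs taken by the genes, for the 29 callus and 1 intact osteoblast-like cells, ordered by Bglap per UMI, with bars stacked by gene. Osteocalcin fills the bars on the left, and 3 cells on the right carry Spp1 with little or no Bglap.

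The intact library had osteocalcin in essentially 1 cell. Of its 3397 Bglap UMIs, 3393 were in the single osteoblast-like cell, which also held 1197 of 1199 Bglap2, 36 of 37 Bglap3 and 100 of 103 Ibsp UMIs, 15 of Ifitm5, 10 of Alpl and 5 of Phex, and none of Spp1, Dmp1 or Mepe. Its Bglap level, 121161 CPM, lay just below the highest callus cell. Over all kept cells Bglap was 2.33-fold higher in the callus (2.25 to 2.41). Without that cell the ratio was 1971 (770 to 7236). The cell had a Scrublet doublet score of 0.171, which placed it among the 12 highest-scoring intact cells, and it had no Ptprc UMI.

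Most osteoblast-like cells carried several of the genes together. Of the 29 callus cells, 24 carried at least 6 of the 10 genes, 11 carried 8 and 4 carried 9, while 1 carried none. BMSC-like cells most often carried 3 (17 of 46 cells). These counts were made without thinning, and the osteoblast-like cells were deeper (median 25018 UMIs, against 6872 in BMSC-like cells). Summed over the 10 genes, the osteoblast-like cells had a median of 67203 and a highest value of 188185 CPM. Besides the osteocalcin pairs, Bglap and Ibsp correlated at r = 0.65 (rho = 0.39) over these cells. Bglap2 and Ibsp stood at r = 0.68 (rho = 0.39) and Ibsp and Ifitm5 at r = 0.60 (rho = 0.31). Dmp1 and Mepe were at r = 0.73 (rho = 0.35), with Mepe in only 1 cell. In these pairs the rank order followed less closely than the levels. That did not hold for every pair, since Bglap and Phex had r = 0.15 and rho = 0.52.

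Most callus UMIs of Ifitm5 and Phex lay in the osteoblast-like cluster. Ifitm5 was at 825 CPM in the callus cells of the cluster (758 to 897), in 23 of 29 cells, and 89.7% of its callus UMIs were there. It was 148-fold above the other stromal cells (86.1 to 281). Outside, 27 UMIs were spread over 23 of 337 monocyte-like callus cells, at 7.22 CPM. Phex, which is linked to phosphate wasting when lost, was at 192 CPM (160 to 228) in 19 of 29 cells, with 79.4% of its callus UMIs in the cluster. Among fibroblasts Phex was 8.22 CPM in the callus (4.49 to 13.8) and 6.59 CPM in the intact library (3.51 to 11.3), and these intervals overlapped.

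Ibsp and Alpl were shared between the osteoblast-like and BMSC-like clusters. Ibsp was at 3504 CPM (3362 to 3649) in osteoblast-like and 6115 CPM (5852 to 6387) in BMSC-like callus cells, which held 48.6% and 42.5% of its callus UMIs. A single BMSC-like cell had 1006 of the 2031 UMIs, and the level without it was 3327 CPM. Alpl was at 480 CPM (429 to 536) and 575 CPM (496 to 663), with overlapping intervals, and the clusters held 49.5% and 29.8% of its UMIs. In the single osteoblast-like intact cell Ibsp stood at 3571 CPM (2905 to 4343).

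The share of cells with these genes was compared after each cell was thinned to 2000 UMIs, so that depth was equal. Ibsp was then found in 24 of 25 osteoblast-like callus cells (96.0%, 79.6 to 99.9%) and 30 of 41 BMSC-like cells (73.2%, 57.1 to 85.8%). Alpl was found in 11 of 25 (44.0%, 24.4 to 65.1%) and in 26 of 41 (63.4%, 46.9 to 77.9%). Neutrophil-like and B-lineage-like callus cells, which do not make bone matrix, had 0.436% (2 of 459) and 0 of 516 for Ibsp, the latter allowing up to 0.581%, and 0.218% and 0.775% for Alpl. All 4 B-lineage-like cells with Alpl were in 1 cluster of early B cells, described below, so this value is not taken as a background level. Before thinning the medians were 25018 UMIs in osteoblast-like, 6872 in BMSC-like, 6005 in neutrophil-like and 3107 in B-lineage-like cells, and Alpl was then in 24 of 29 osteoblast-like and 41 of 46 BMSC-like cells. Bglap was in 23 of 25 osteoblast-like (92.0%) and 6 of 41 BMSC-like cells (14.6%).

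**Figure D3:**
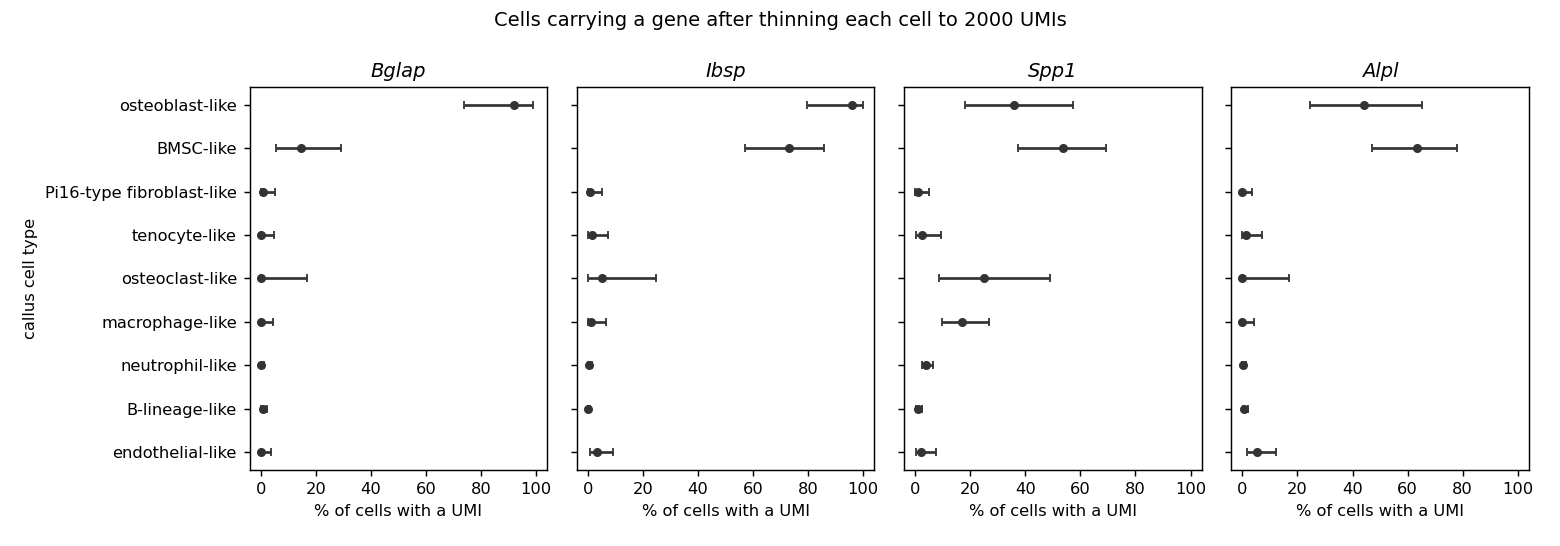
Percent of callus cells with at least 1 UMI of Bglap, Ibsp, Spp1 or Alpl after thinning to 2000 UMIs, by cell type, with 95% exact binomial intervals. Bglap is high in osteoblast-like cells alone, while Ibsp and Alpl are high in both osteoblast-like and BMSC-like cells.

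Alpl also appeared at low levels elsewhere. It was in 15 of 111 callus endothelial-like cells (31.8 CPM, 18.8 to 50.2) and in 5 of 30 intact ones. Within the B lineage, 27 of 29 callus UMIs were in the cluster led by Vpreb1, Igll1 and Dntt, genes of early B cells, in 19 of 141 cells. A cycling unnamed cluster with Il7r among its leading genes had 22 UMIs in 12 of 69 callus cells. In tenocyte-like callus cells, 40 of 41 Alpl UMIs and all 194 Ibsp UMIs came from a single cell of 34466 UMIs.

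Spp1 had another distribution from osteocalcin. BMSC-like cells held 66.5% of its 15848 callus UMIs (31736 CPM, 31133 to 32348) and osteoblast-like cells 20.6% (4919 CPM, 4751 to 5091). Relative to the other callus stromal cells the osteoblast-like cluster stood at 1.04-fold (0.997 to 1.08). Spp1 was carried by 28 of 46 BMSC-like cells with a median of 1.50 and a highest value of 2813 UMIs, and 7 cells with at least 100 UMIs held 10291 of the 10540. The 5 cells with the most Spp1 in the callus held 65.4% of its UMIs.

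Those 7 cells differed from the other 39 BMSC-like cells in more than Spp1. This split uses Spp1 itself and was set after its values were seen, so it is a description. Ibsp was 16157 CPM against 1988 CPM, Dmp1 858 CPM against 4.25 CPM, Col1a1 4476 CPM against 531 CPM and Mmp13, a collagenase, 6823 CPM against 2948 CPM. The marrow stromal genes went the other way, with Cxcl12 at 2698 CPM against 17699 CPM, Adipoq at 310.1 CPM against 2655 CPM and Lepr at 299.8 CPM against 663 CPM. Alpl was 476 CPM (348 to 634) against 616 CPM (520 to 725). Depth differed as well, since the 7 cells had a median of 13246 UMIs, against 6073 in the others. None of the 46 cells had a Ptprc UMI, but 4 of the 7 were among the 87 callus cells with the highest Scrublet scores. When those 87 were removed and cells typed again, Spp1 in BMSC-like cells was 3433 CPM and the osteoblast-like share of Spp1 was 64.7%, and Ibsp in BMSC-like cells was 2359 CPM. Those 4 cells held 7990 of the 10291 Spp1 UMIs. The osteoblast-like cluster then held most callus Spp1 UMIs, so the order of the clusters for this gene turned. The part of doublets in the Spp1 pattern was not tested.

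**Figure D4:**
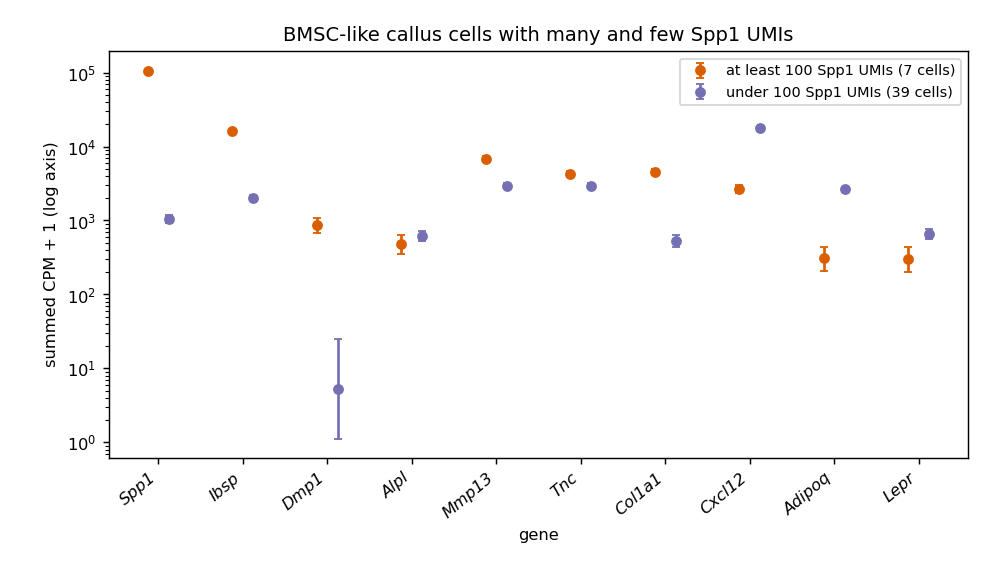
Summed CPM plus 1 (log axis) of 10 genes in BMSC-like callus cells with at least 100 Spp1 UMIs (7 cells) and with fewer (39 cells), with 95% Poisson intervals. Ibsp, Dmp1 and Col1a1 are higher in the first group, and Cxcl12, Adipoq and Lepr are lower.

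A gate on single cells in place of clusters put 71 callus cells into the osteoblast class, 34 of them BMSC-like by cluster. Under it Spp1 in BMSC-like cells was 172 CPM and the osteoblast class held 86.7% of Spp1 and 92.7% of Ibsp, so here too the order for Spp1 turned. The division between these stromal classes thus depends on how cells are named.

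How often Bglap and Spp1 met in the same cell depended on the UMI limit. At 100 UMIs, 19 of 302 callus stromal cells had Bglap alone, 11 Spp1 alone, 3 both and 269 neither. Within the 29 osteoblast-like cells the numbers were 17, 3, 3 and 6. At 10 UMIs the stromal numbers were 22, 15, 8 and 257, and at 1 UMI 15, 32, 28 and 227. At 1 UMI, 16 of the 29 osteoblast-like cells carried both genes. The number expected to hold both was not worked out, so no avoidance is read from these counts. The 3 osteoblast-like cells with Spp1 alone at 100 UMIs had 1725, 585 and 300 Spp1 UMIs and 48, 1 and 0 Bglap UMIs. Across the 29 cells the levels of Bglap and Spp1 correlated at Pearson r = -0.57 (Spearman rho = -0.61, log of 1 plus UMIs per 10000), as against 0.95 for Bglap and Bglap2. The 100-UMI limit was set after the values were seen. All points share 1 library, and depth varied between 1258 and 46980 UMIs.

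**Figure D5:**
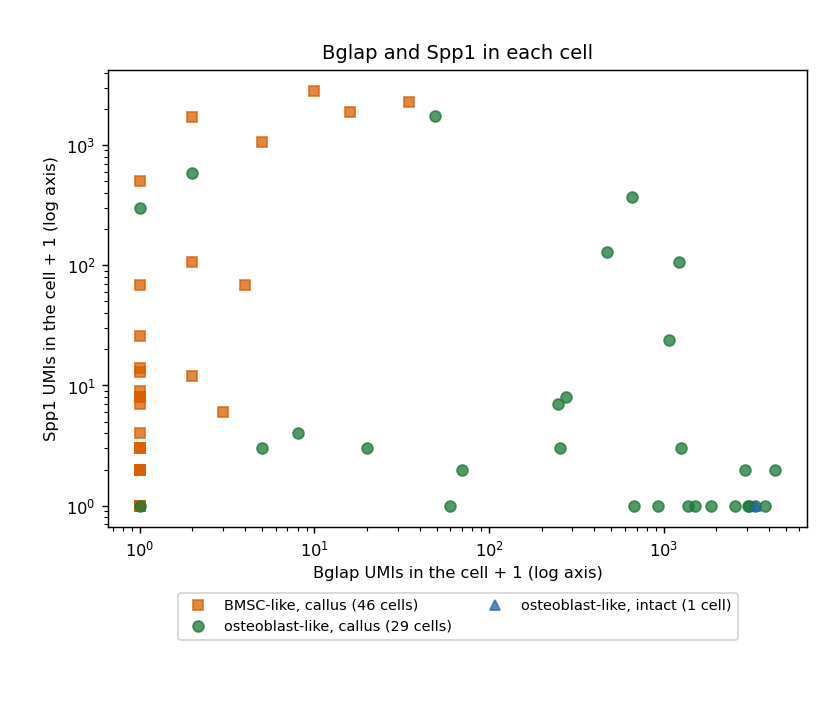
Spp1 against Bglap UMIs plus 1 (log axes) in each of the 46 BMSC-like and 29 osteoblast-like callus cells and the 1 intact osteoblast-like cell. Cells with over 1000 Bglap UMIs have at most 105 Spp1 UMIs, and cells with over 1000 Spp1 UMIs have at most 48 Bglap UMIs.

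Spp1 was also present outside the stroma. Of 20 osteoclast-like callus cells, 12 carried it (1428 CPM), but 689 of their 768 UMIs were in a cell without Acp5 or Ctsk UMIs, the osteoclast enzymes, and the level without it was 154 CPM. Macrophage-like callus cells stood at 620 CPM (554 to 690). The macrophage-like cluster led by Mmp12, with no intact cell, had 948 CPM (844 to 1061) and the cluster led by Pf4 and Folr2 had 119 CPM (77.2 to 176). Intact Spp1 came to 76 UMIs, 54 of them in 22 of 285 neutrophil-like cells (32.7 CPM, 24.6 to 42.7), and callus neutrophil-like cells were at 31.4 CPM (25.5 to 38.2), with overlapping intervals. In callus haematopoietic cells as a whole, Spp1 had 807 UMIs for every 100 of Bglap, against 9.26 in osteoblast-like cells. Bglap2 stood at 34.6 and 44.5 per 100 of Bglap. The haematopoietic ratios rest on few UMIs. A single neutrophil-like cell held 30 of the 81 Bglap and 13 of the 28 Bglap2 UMIs, along with 83 of Col1a1.

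The osteocyte-associated genes were rare. Dmp1 had 198 UMIs in 19 callus cells and none in 1207 intact cells, which allows up to 0.399 CPM, so the callus level (5.77 CPM) was at least 14.5-fold higher. Osteoblast-like cells had 107 of the UMIs (161 CPM, 132 to 195) in 12 of 29 cells, BMSC-like cells 84 in 5 cells, and fibroblasts 7. All 20 Mepe UMIs were in a single osteoblast-like cell of 4015 UMIs, which also had 300 of Spp1, 29 of Dmp1 and 7 of Phex and no UMI of Bglap or Col1a1. Sost and Fgf23, which mature osteocytes secrete, had no UMI in either library. They belong to a list of 6 osteocyte genes, with Dkk1, Irx5, Fbln7 and Pdpn. Against the other callus stroma, 1 of the 6 was at least 2-fold higher in osteoblast-like cells and 2 were as much lower. The remaining 3 had under 20 UMIs. Of all 9828 genes in this comparison, 4.69% were higher and 43.9% lower.

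Across all kept cells, 8 of the 10 genes were at least 2-fold higher in the callus, where 8.59% of the 14825 genes with at least 20 UMIs were. The folds were 45.7 for Spp1 (36.5 to 58.1), 10.2 for Ibsp (8.36 to 12.5), 4.78 for Ifitm5, 3.80 for Alpl, 3.38 for Bglap3, 2.94 for Bglap2 and 2.33 for Bglap, with Dmp1 as given above. Dmp1 and Mepe passed the limit of 20 UMIs through the callus alone. Phex was 1.95-fold (1.19 to 3.37). Mepe stood at 0.583 CPM in the callus (0.356 to 0.901), 1.46-fold the intact limit of 0.399 CPM. Its callus interval reached below that limit, so no ratio is read for Mepe. Without the intact osteoblast-like cell Ibsp was 348-fold (119 to 1687, on 3 intact UMIs) and Spp1 45.6-fold. With the highest Scrublet scores removed from both libraries, Bglap was 2011-fold, Ibsp 260-fold and Spp1 22.5-fold. These values carry the different numbers of osteoblast-like and BMSC-like cells in the 2 libraries, and fewer such cells and less RNA per cell cannot be told apart in them.

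Within fibroblasts, the only stromal cells numerous in both libraries, 5 of the 6 genes with at least 20 UMIs were at least 2-fold higher in the callus, where 4.7% of 9963 genes were. Spp1, Ibsp, Bglap and Bglap2 passed that limit only through the callus, with at most 1 intact UMI each, and Alpl rested on 1 cell, so nothing is read from this count. Spp1 was 311 CPM against 0 (the intact limit is 1.52 CPM), but 442 of its 530 UMIs were in 1 cell, without which it was 51.7 CPM. Ibsp was 152 CPM in 3 of 210 cells and 38.9 CPM without the top cell, and Bglap was 85.7 CPM in 5 cells and 14.7 CPM without it. Alpl was 25.2 CPM in the callus and 7.10 CPM in the intact library, and 1.80 CPM and 5.09 CPM without the top cell of each, so its direction turned. Of the callus fibroblasts, 187 of 210 had no UMI of any of the 10 genes, as did 269 of 284 in the intact library.

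Against the rest of the callus stroma, 9 of 10 genes were at least 2-fold higher in the osteoblast-like cluster, against 4.69% of 9828 genes. Mepe, Bglap3 and Ifitm5 passed the limit of 20 UMIs through that cluster alone. The other callus stromal cells held no Mepe and 14 Bglap3 UMIs. Ifitm5 had 11 UMIs in unnamed stromal cells, 2 in BMSC-like cells and none in fibroblasts. The median log2 ratio was 4.33 for the 10 genes and -0.85 for all genes. BMSC-like cells exceeded callus fibroblasts at least 2-fold in 7 of the 7 genes with enough UMIs, against 14.1% of 8884 genes. For 3 of them the BMSC-like level came mostly from the 7 cells with much Spp1. In the other 39 cells Bglap was 25.5 CPM against 85.7 CPM in fibroblasts, Bglap2 38.2 CPM against 32.9 CPM and Dmp1 4.25 CPM against 4.11 CPM. The fibroblast values kept their own top cells, however. A single fibroblast held 121 of 146 Bglap and 39 of 56 Bglap2 UMIs. Fibroblast Dmp1 was 0.588 CPM without its top cell. No order between the 39 cells and fibroblasts is therefore read for these 3 genes. Dmp1 also passed the limit of 20 UMIs through the BMSC-like cells alone (84 UMIs, against 7 in fibroblasts). Both comparisons set clusters against other cells and are descriptions.

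Partner genes of mineralisation were compared between the same clusters, and some of them had also served to name the clusters. Of 7 collagen scaffold genes, 5 were at least 2-fold higher in osteoblast-like cells than in the other callus stroma, against 4.69% of 9828 genes. Among them were Col1a1 (129146 CPM, 16.3-fold) and Sparc, which encodes the matrix protein osteonectin (58501 CPM, 8.91-fold). Col1a1 and Omd were osteoblast naming markers, and Col1a1, Col1a2 and Sparc led the cluster. The count is therefore no separate support for the name. Mgp, an inhibitor of calcification, had no UMI in osteoblast-like cells and 2566 in the others. Of the phosphate and pyrophosphate genes, only Smpd3, a sphingomyelinase needed for bone mineral and itself a naming marker, was at least 2-fold higher (5.45-fold). Enpp1, which makes pyrophosphate, and the phosphate transporters Slc20a1 and Slc20a2 were lower, as were many genes in this comparison. In BMSC-like cells against fibroblasts, 3 of 6 genes of this list were at least 2-fold higher and 2 were as much lower. Of all 8884 genes, 14.1% were higher. Slc20a2 and Enpp1 were among the higher ones (39.6-fold and 6.20-fold). These comparisons have unlike references, since the other callus stroma includes the BMSC-like cells.

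Of 6 enzymes that modify or cleave matrix proteins, 2 were at least 2-fold higher in osteoblast-like cells and 1 was as much lower. Vkorc1, which recycles vitamin K, was 3.23-fold higher and Fam20c, the kinase of SIBLING proteins, 3.14-fold. The lower enzyme was Mmp13, although it was on the osteoblast naming list. Mmp13 led the BMSC-like cluster, which is part of the other stroma here. Ggcx, the carboxylase of osteocalcin, was 1.66-fold (0.977 to 2.75). Of 8 osteoblast transcription factors 7 were at least 2-fold higher in osteoblast-like cells, with Atf4 the exception, and 6 were so in BMSC-like cells against fibroblasts. Over all genes the shares were 4.69% and 14.1%. All 8 but Atf4 and Vdr were osteoblast naming markers, so the first count describes how that cluster was named. Runx2 itself was 196 CPM in osteoblast-like and 428 CPM in BMSC-like callus cells. Of 7 osteopontin receptor genes, 6 were at least 2-fold lower in osteoblast-like cells than in the other stroma, Cd44 among them (0.390-fold), but 43.9% of the 9828 genes were as much lower in this comparison and the median log2 ratio was -1.36 for the receptors and -0.85 for all genes, so nothing particular to the receptors is read from it.

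By correlation over the 302 callus stromal cells, the 10 genes most like the sum of the members included Cdh2 (Pearson r = 0.76), Cpe (0.74), Col11a1 (0.73), Tmem176a (0.71), Sorbs2 (0.70), Nrp2 (0.70), Dapk2 (0.69) and Car3 (0.68), of 6997 genes ranked. Bglap alone was most like Col11a2 (0.90) and Car3 (0.87). Spp1 alone was most like Vdr, the vitamin D receptor (0.65), Slit2 (0.64) and Mmp13 (0.61). Ibsp was most like Tmem176a (0.76) and Alpl most like Cdh2 (0.80). The cells share 1 library, and all of these are descriptions.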

How the data were processed

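Single-cell 3′ RNA-seq (10x kit V3) was made from tdTomato-sorted cells. Per the labels and file headers, the authors used Cell Ranger (6.0.0 in the matrix header) with the mm10 build (submitters' processing notes), and the deposited values are raw UMI counts per gene and barcode. Counts of overlapping or near-identical genes depend on that mapping.

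Barcodes with fewer than 500 detected genes, or in which mitochondrial transcripts exceeded 10%, were left out. The others were clustered in scanpy 1.11.5 (2000 variable genes without the 10 members, 30 components, Leiden resolution 1, stromal and osteoclast-scoring clusters again at 0.5) and named from marker lists. No cells were removed as doublets, since Scrublet called 0.249% of intact and 0.121% of callus cells; removing the highest scores (0.8% per 1000 cells) was an alternative. Levels are summed UMIs per 1000000 with Poisson intervals, and shares have exact Clopper-Pearson intervals, both for counting error only. A count of 0 is given a limit of 3 counts, and thinning used 2000 UMIs per cell. Ratios used genes with at least 20 UMIs. Named genes were the 10 members, the 10 most correlated genes and fixed lists of partner genes. Some of these genes are not reported here. Genes most like a single member, leading genes of clusters and genes given for single cells were named after their values were seen. Members and lists were chosen with earlier results of these data known. Other alternatives changed the cell filter, the clustering, the naming and the thinning. Functions were tested on simulated data.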

Additional observations from a re-analysis of the deposited data

Results flagged for a closer look

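Barcodes that failed the cell filter (665 intact, 692 callus) entered no comparison, but some held UMIs of the genes. The callus totals were 285 UMIs of Bglap, 105 of Bglap2, 9 of Bglap3, 68 of Ibsp, 94 of Spp1, 7 of Ifitm5 and 12 of Alpl, and Phex had 1 UMI in each library. Bglap was spread over 15 callus barcodes, against 105 UMIs in 2 intact ones. What these barcodes hold was not tested.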

How the results depend on the processing

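With 1 library per condition, counting intervals leave out the spread between animals, and the BMSC-like and fibroblast values rest on few cells. No paired analysis was possible because the shared replicate number marks 1 library in each condition. Some values under alternatives could not move. Ratios of callus to intact over all kept cells do not use cell types, so other clusterings and the gate left them unchanged. Of all values under alternatives, with these included, 106 of 150 stayed within the counting interval of the main value. The rest follow, where the main values were 87682 CPM for the sum of the 10 genes in osteoblast-like callus cells and 97.5%, 48.6%, 20.6% and 49.5% for the share of callus Bglap, Ibsp, Spp1 and Alpl UMIs in them. With at least 200 genes per cell the sum was 85066 CPM and the shares of Bglap and Ibsp 99.3% and 51.0%. With limits of 1000 genes and of 5% mitochondrial transcripts the sum was 75853 CPM, the shares of Bglap, Ibsp and Spp1 99.4%, 52.8% and 15.7%, and Spp1 in BMSC-like cells 36946 CPM. Removing the highest Scrublet scores (12 intact and 87 callus cells) gave a sum of 85872 CPM, shares of 99.7%, 76.8% and 64.7%, Spp1 and Ibsp in BMSC-like cells of 3433 and 2359 CPM, and ratios of callus to intact of 2011 for Bglap, 22.5 for Spp1 and 260 for Ibsp. Stromal resolution 1 gave a Spp1 share of 15.0%, 33299 CPM of Spp1 in BMSC-like cells and Bglap in 100% of thinned osteoblast-like cells. Allowing the 10 genes among the variable genes gave a sum of 85153 CPM, shares of 99.3%, 50.5% and 15.0%, 33299 CPM of Spp1 in BMSC-like cells and Bglap in 100% of thinned cells. The gate on single cells gave 2.15% osteoblast-like callus cells, a sum of 66322 CPM, shares of 94.6%, 92.7%, 86.7% and 81.6%, 172 and 1177 CPM of Spp1 and Ibsp in BMSC-like cells, Alpl in 42.9% of BMSC-like and Bglap in 40.9% of osteoblast-like thinned cells. Alpl was in 31.7% of BMSC-like cells when 2 UMIs were required, 41.3% after thinning to 1000 and 89.1% without thinning. The sum was 77051 CPM as a mean over cells and 83798 CPM without the top cell. Alternatives added after seeing the data were the ratios without the intact osteoblast-like cell (1971 for Bglap, 348 for Ibsp) and Spp1 without the top BMSC-like cell (24434 CPM). Stromal resolution 0.3 left no osteoblast-like or BMSC-like cluster, so 11 results had no value there. The cause of these shifts was not tested.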
